A study of Ipomoea batatas with 12 samples.

Results

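Young roots of sweetpotato (Ipomoea batatas) that overexpress MBP3 (MBP3-OE) were compared with young wild-type (WT) roots at 20 days and 1 month. The comparison held 8 of the 12 libraries of the series, namely 6 MBP3-OE libraries (numbers 2, 3 and 8 at each age) and 1 WT library at each age, with age as a covariate. Of the 45142 genes in the table, 28096 were tested, those that averaged 0.5 FPKM or more over these 8 libraries. FPKM is the number of fragments scaled to gene length and to the depth of the library. The 4 libraries of 4 months, 1 WT and 3 MBP3-OE, stayed outside the comparison and were used only to look at its genes again in other libraries.

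The study sequenced whole-root RNA of the cultivar Taizhong 6 and of MBP3-OE plants, all grown in a greenhouse, to find genes tied to the formation of tuberous roots. The WT roots of 20 days were called fibrous roots, and the series text gives 60 days after planting for developing tuberous roots where the WT library carries the label 1 month. Several limits follow from these groups. The promoter of the MBP3 construct, the cultivar in which it was made and whether the numbers 2, 3 and 8 are lines or plants were not given in the sources used here, and nothing says that they came from separate cultures, so p-values measure the spread between these libraries only. Each WT library pooled the roots of several plants, so each age had 1 WT value. In whole roots, fewer cells of a type and less RNA per cell cannot be told apart.

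MADS-box proteins are transcription factors that bind DNA as dimers. They are best known for setting organ identity in flowers and flowering time, and several clades are also active in roots. A sweetpotato root becomes a storage root when a cambium divides and its daughter cells fill with starch and with sporamin, a Kunitz-type trypsin inhibitor that is the main storage protein of the root. Roots also take up nitrate and ammonium and can make defence compounds such as sesquiterpenes.

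The targeted gene was read first. MBP3 is a pair of neighbouring genes in the table, g4107 (linkage group 1, bases 29559499 to 29562210, minus strand) and g4109 (29574715 to 29577770, plus strand), in the coordinates of the deposited table, which follow the sweetpotato genome of the Ipomoea Genome Hub (version not given in the sources used here). In g4107, WT stood at 15.3 FPKM at 20 days and 23.2 at 1 month. The MBP3-OE libraries, always listed here in the order 2, 3 and 8, stood at 75.0, 78.4 and 67.3 at 20 days and at 29.7, 58.4 and 51.3 at 1 month. All 6 were above WT of their age, but number 2 at 1 month came close to it. In g4109 WT had 7.38 and 10.5 FPKM, and MBP3-OE had 40.8, 40.3 and 36, then 16.6, 29.7 and 26.3. Both genes may share reads, and FPKM cannot tell the native from the introduced transcript. At 4 months the genotypes overlapped, with 83.2 FPKM of g4107 in WT and 55.8, 67.5 and 121 in MBP3-OE.

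The library labelled MBP3-OE 1 month number 2 stood apart from the other MBP3-OE libraries, and fits, lists and sums that rest on it are therefore given with it and without it. Totals in the 8 young libraries ran from 42391140 to 58486728 counts, and this library, with 51470326, was not shallow. On the first principal component, which took 50.0% of the variance, it lay at -134, against -71.2 and -87.9 in MBP3-OE numbers 3 and 8 of the same age and -38.0 in WT of that age. Over all ages, 15 genes separated the 8 other MBP3-OE libraries from the 3 WT libraries by at least 2-fold (7 higher and 8 lower in MBP3-OE). In this library 6 of the 15 lay with WT, 6 lay between and 3 lay with MBP3-OE. Examples are 2 LINE-type retrotransposon genes, g15994 and g7762: g15994 had 10.6, 9.29 and 9.82 FPKM in WT at 20 days, 1 month and 4 months, 24.7 to 56.5 in the 8 other MBP3-OE libraries, and 5.82 in this one. These 15 genes were chosen after their values were seen, and the choice bound every library but this one. No other library was left out of such a choice, so the counts are a description only.

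Levels along the genome set the same library apart. The table places genes on 15 linkage groups, the chromosomes of its assembly. For 20861 genes that averaged 2 FPKM or more, the difference of log2(FPKM + 0.5) between each MBP3-OE library and WT of its age was taken, centred on its median over all genes, and its median was read per linkage group. In the 5 young MBP3-OE libraries other than 1 month number 2, this median lay between -0.34 and -0.18 on linkage group 7, between -0.22 and -0.21 on linkage group 8, between 0.19 and 0.23 on linkage group 9 and between 0.19 and 0.22 on linkage group 13. The 3 MBP3-OE libraries of 4 months, set against their own WT library, gave -0.28 to -0.21, -0.25 to -0.24, 0.17 to 0.21 and 0.14 to 0.17 on the same 4 linkage groups. All 8 of these libraries thus had the same sign on each of them. In MBP3-OE 1 month number 2 the 4 medians were -0.03, -0.03, 0.09 and -0.02, and its largest median of all 15 was 0.11, on linkage group 2.

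The other 11 linkage groups stayed between -0.17 and 0.07 in the 5 young libraries, with -0.17 reached on linkage group 5 in MBP3-OE 1 month number 8 and the other 10 groups between -0.10 and 0.07. Between WT libraries, 1 month against 20 days gave -0.05 to 0.05 over all 15 linkage groups and 4 months against 1 month gave -0.08 to 0.06. Differences taken at 1 age share a WT library, but the 3 ages use 3 different ones. On linkage group 7 the shift was larger in the first 12 Mb (726 genes), where MBP3-OE numbers 2, 3 and 8 had -0.42, -0.51 and -0.31 at 20 days and -0.30, -0.46 and -0.22 at 4 months, while number 2 at 1 month had -0.01 and numbers 3 and 8 had -0.52 and -0.19. After 12 Mb the 8 other MBP3-OE libraries lay between -0.22 and -0.16. MBP3-OE 1 month number 2 was high on 2 stretches, with 0.29 after 20 Mb of linkage group 9 (0.01 before it), where the others also lay between 0.15 and 0.34, and 0.39 after 36 Mb of linkage group 2, where the others lay between -0.02 and 0.16. The 4 linkage groups were picked after their values were seen. Whether the label of MBP3-OE 1 month number 2 is right was not tested. For MBP3 and the 3 genes called over 8 libraries, it lay on the same side of WT as the other young MBP3-OE libraries. Those 3 genes were called with this library in the fit, so its side in them was largely set by the choice and is a description only. Its use as an MBP3-OE library in each value over 8 libraries stays uncertain. The DNA of these plants was not measured, and the reads were not examined here.

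**Figure D1:**
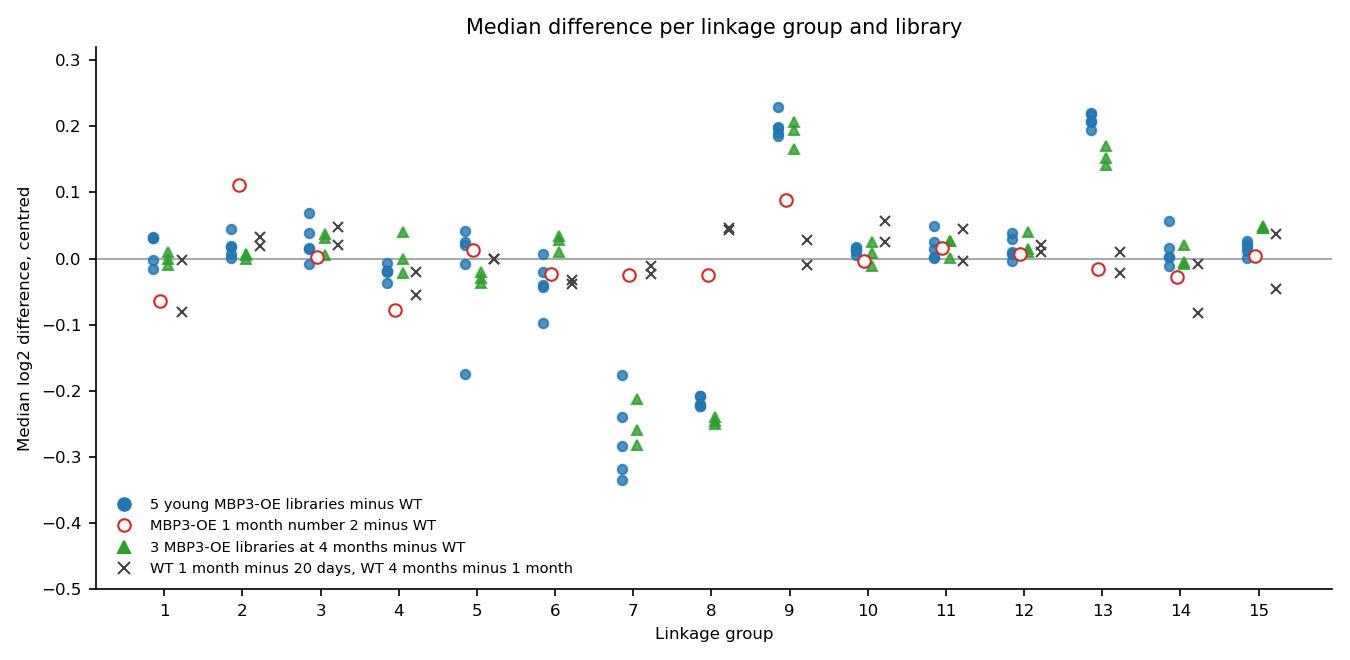
Median log2 difference of FPKM (y axis, log2 of FPKM + 0.5, centred on all genes) for the genes of each linkage group (x axis). Each point is 1 library against WT of its age, or 1 WT age against the age before. Linkage groups 7 and 8 lie below 0 and 9 and 13 above 0 in the 5 young and the 3 older MBP3-OE libraries, and the open circle, MBP3-OE 1 month number 2, lies at -0.03, -0.03, 0.09 and -0.02 there.

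Over all 8 libraries, 3 genes were called at an adjusted p under 0.05 (edgeR's quasi-likelihood test, Benjamini-Hochberg adjustment) and a change of at least 2-fold. The 2 genes that rose are 0.00712% of those tested, and the 1 that fell is 0.00356%. By DESeq2 far more were called, namely 685 genes higher (2.44%) and 593 lower (2.11%). At an unadjusted edgeR p under 0.05, 5236 genes passed, 18.6% of those tested. Counted without a test, 1084 genes (3.86%) had every MBP3-OE library above WT of its age and a fitted change of at least 2-fold, and 781 genes (2.78%) had every library below it.

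g38113, annotated as sugar transporter ERD6-like 5 (a family of vacuolar sugar exporters in Arabidopsis), rose. It had 2.22 and 2.67 FPKM in WT at 20 days and 1 month, 9.35, 9.53 and 8.41 in MBP3-OE at 20 days and 10.1, 11.6 and 14.2 at 1 month, so that all 6 MBP3-OE libraries, number 2 at 1 month included, lay well above both WT libraries. The log2 fold change was 2.03 (SE 0.19, adjusted p = 0.0475), a 4.08-fold rise. g22066, a gene of linkage group 6 with no description, rose by 3.07 on the log2 scale (SE 0.24, adjusted p = 0.0437), from 0.827 and 0.652 FPKM in WT to 7.87, 7.43 and 6.00, then 4.94, 7.48 and 5.6, in MBP3-OE.

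g61028, a homolog of MMS19, which in yeast and human cells helps to place iron-sulfur clusters on enzymes of DNA repair, fell by 2.31 on the log2 scale (SE 0.21, adjusted p = 0.0475). WT had 16.9 and 15.9 FPKM, and MBP3-OE had 3.06, 2.80 and 2.5, then 5.26, 4.00 and 4.13. Because these 3 genes were called from the same 8 libraries, overlap was unlikely from the start, and the groups did not overlap in any of the 3. They also stayed apart at 4 months, where g61028 had 14.4 FPKM in WT and 3.6, 5.12 and 2.87 in MBP3-OE (log2 fold change -1.85, adjusted p = 0.0381) and g22066 had 0.671 and 7.37, 14.1 and 12.5 (4.12, adjusted p = 0.0288). For g38113 the order at 4 months was the same, 4.51 against 6.16, 10.2 and 9.35, without passing the test (0.98, adjusted p = 0.218). In the same fit over 8 libraries MBP3 itself missed the threshold, with 1.5 (SE 0.33, adjusted p = 0.0902) for g4107 and 1.68 (SE 0.30, adjusted p = 0.0681) for g4109.

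**Figure D2:**
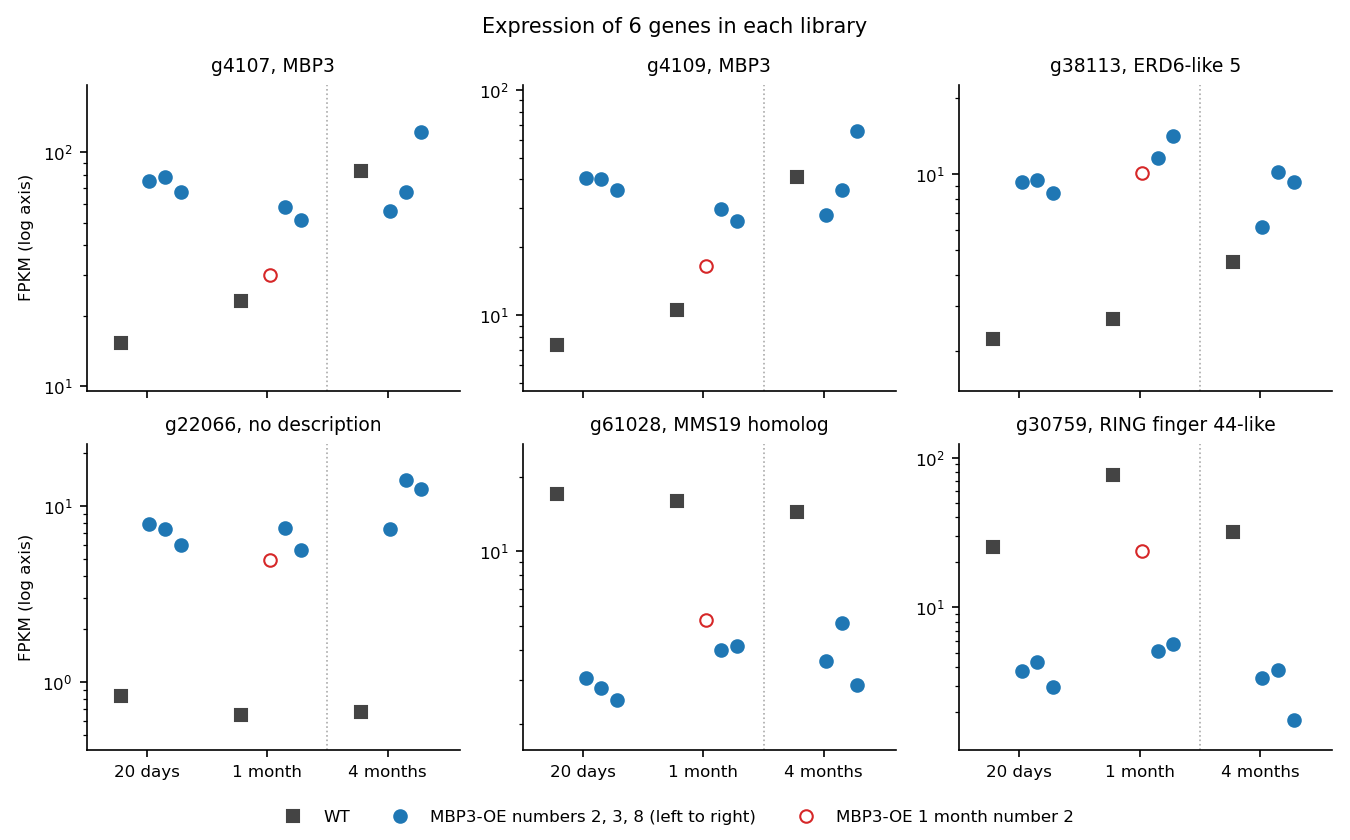
FPKM (log axis) of 6 genes in each of the 12 libraries by age. Squares are WT, filled circles MBP3-OE numbers 2, 3 and 8 from left to right, and the open circle MBP3-OE 1 month number 2. The dotted line sets off the 4-month libraries, which are outside the comparison. MBP3 (g4107 and g4109) lies above WT in the young MBP3-OE libraries and overlaps it at 4 months, while g22066, g61028 and g30759 stay apart at all 3 ages.

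The count of calls turned on single libraries. Without MBP3-OE 1 month number 2 it was 245, without MBP3-OE 1 month number 3 it was 64, and without WT 20 days it was 1. The 1 gene left without WT 20 days is g46748, described with the ages below. Leaving out MBP3-OE 20 days number 2, number 3 or number 8, WT 1 month, or MBP3-OE 1 month number 8 left 0 calls by edgeR, with 4009 to 5100 genes at an unadjusted p under 0.05. The calls of g38113, g22066 and g61028 were thus lost in 6 of the 8 cases, at an adjusted p of up to 0.18, while their log2 fold changes stayed between 1.92 and 2.16, between 2.98 and 3.19 and between -2.71 and -1.82. The 245 genes called over the other 7 libraries were 84 higher (0.299% of all tested) and 161 lower (0.573%) in MBP3-OE. They include the 3 genes above, and all 245 had the same sign over 8 libraries. In the library left out, 68 of the 84 (81.0%) lay above WT of 1 month, as did 45.7% of all genes tested, and 152 of the 161 (94.4%) lay below it, as did 54.0% of all genes. The same WT library was used to choose the 245, so this is a description, and against both WT libraries the counts were 62 and 143. These 7 libraries were chosen after the data were seen, and their count in turn depended on the rest: leaving out a second library gave 3 calls without MBP3-OE 20 days number 2 (g28064, g28078 and g37148), 8 without number 3, 0 without number 8 (4452 genes at an unadjusted p under 0.05), 121 without WT 20 days, 461 without WT 1 month, 287 without MBP3-OE 1 month number 3 and 203 without number 8. DESeq2 called 776 higher and 710 lower over the same 7 libraries (2.76% and 2.53%). Below, a gene that rose or fell is one called over these 7 libraries. Its adjusted p over all 8 stands beside most genes whose levels are given, or as a range for a group, but not beside genes only named or counted in a list. Apart from g38113, g22066 and g61028, none of them was called over all 8.

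**Figure D3:**
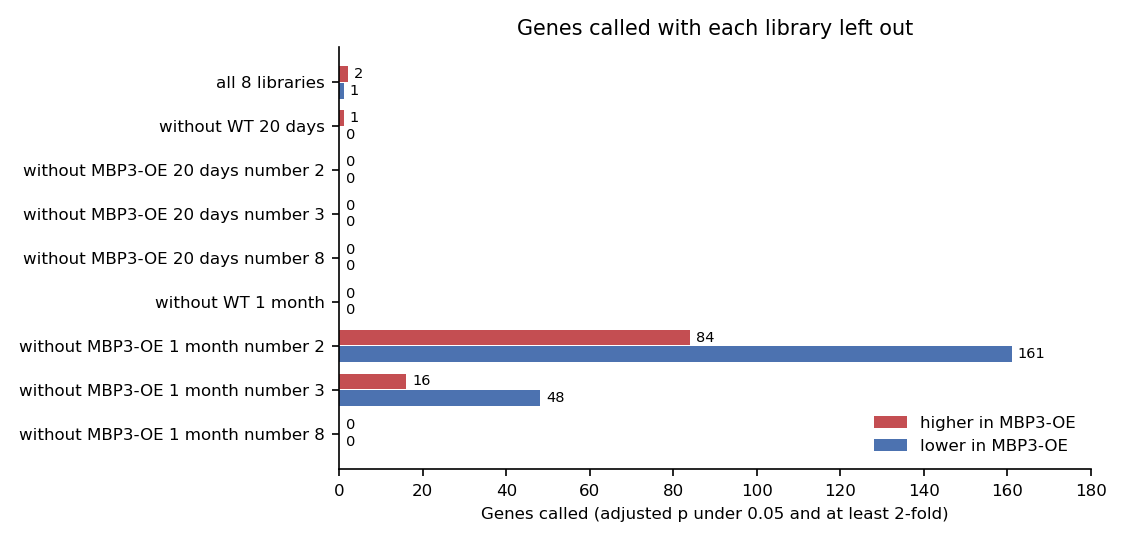
Genes called (x axis, adjusted p under 0.05 and at least 2-fold, edgeR) with all 8 young libraries and with each left out (rows), in bars for higher and lower in MBP3-OE. All 8 libraries give 2 and 1, and only the rows without MBP3-OE 1 month number 2 (84 and 161) and number 3 (16 and 48) exceed that.

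Without that library MBP3 rose, by 1.66 on the log2 scale for g4107 (SE 0.25, adjusted p = 0.0406) and by 1.81 for g4109 (SE 0.24, adjusted p = 0.037). Of the 39 MADS-box genes tested these were the only 2 called over 7 libraries (0.299% of all genes were called higher). None was called over 8, with 13 at an unadjusted p under 0.05. DESeq2 over 8 libraries called 7 higher and 2 lower (2.44% and 2.11% of all genes). Over 8 libraries 12 of 39 had every MBP3-OE library above WT with at least 2-fold (3.86% of all genes) and 2 had every one below (2.78%), and over 7 libraries 11 and 3 (4.36% and 3.05% of all genes). The median log2 fold change was 0.60 over 8 libraries and 0.67 over 7, against 0.01 over all genes. Among 97 homeobox genes tested, 2 rose (0.299% of all genes did), the class III homeodomain-leucine zipper genes annotated ATHB-15-like and ATHB-14-like, whose Arabidopsis relatives act in vascular patterning. g55279 (ATHB-15-like) had 22.6 and 27.2 FPKM in WT, 52.3, 60.6 and 49.6 in MBP3-OE at 20 days and 80.6, 100 and 123 at 1 month. All 6 MBP3-OE libraries lay above both WT libraries, and the log2 fold change was 1.51 (SE 0.23, adjusted p = 0.0418, and 0.0623 over 8 libraries). g37088 (ATHB-14-like) rose by 1.34 (adjusted p = 0.0254, and 0.118 over 8), and here MBP3-OE 1 month number 2, with 22.8 FPKM, came near the 19.8 of WT.

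Of the 15 genes named for their rise, g37148 had the largest. It is an ABC transporter of the C family, whose members in plants carry conjugates and pigments into the vacuole. WT had 0.489 and 0.748 FPKM, and MBP3-OE had 12.9, 7.51 and 8.12, then 1.62, 14.0 and 11.2. Number 2 at 1 month again lay between the rest and WT, and the log2 fold change was 4.08 without it (SE 0.29, adjusted p = 0.00718) and 3.82 with it (SE 0.80, adjusted p = 0.0848). A second member of that family, g35156 (ABCC10-like), rose by 1.70 (adjusted p = 0.038, and 0.168 over 8).

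g51110, a CEN-like gene of the family of flowering-time regulators that holds FT and TFL1, rose by 3.6 (SE 0.52, adjusted p = 0.038, and 0.111 over 8). It went from 1.04 and 1.12 FPKM in WT to 11.8, 14.6 and 16 in MBP3-OE at 20 days and 2.05, 20.9 and 6.62 at 1 month. At 4 months the order was the other way, with 1.45 FPKM in WT and 0.156, 0.102 and 0.607 in MBP3-OE (log2 fold change -2.24, adjusted p = 0.321). The signal peptide precursor gene g51797 (hydroxyproline-rich preprosystemin, whose relatives in tomato and tobacco release wound peptides) had 2.12 and 1.13 FPKM in WT, and 12.5, 11.4 and 15.1, then 5.69, 6.63 and 3.18, in MBP3-OE. Its log2 fold change was 2.28 (adjusted p = 0.0418, and 0.0594 over 8), and no young MBP3-OE library reached down to WT.

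Several enzymes rose as well. g54671, a beta-amylase-like gene of starch breakdown, rose by 2.28 (adjusted p = 0.0464, and 0.0638 over 8), from 0.797 and 1.97 FPKM to 5.71, 5.32 and 7.04, then 12.8, 5.24 and 9.09. g34405, which encodes a relative of ACC oxidase, the last enzyme of ethylene synthesis, had 32.0 and 25.2 FPKM in WT and 124, 152 and 105 in MBP3-OE at 20 days. At 1 month MBP3-OE numbers 3 and 8 had 129 and 86, but number 2 had 18.1, below WT, and the log2 fold change of 1.94 without it (adjusted p = 0.0325) became 1.72 with it (adjusted p = 0.2). g41674 (iridoid synthase-like) rose by 2.06 (adjusted p = 0.0295, and 0.0684 over 8), from 8.69 and 24.3 FPKM to 40.4, 37.9 and 26.8, then 50.7, 103 and 140. It was also higher at 4 months, where WT had 7.59 FPKM and MBP3-OE 89.4, 54.4 and 66.5 (log2 fold change 3.30, adjusted p = 0.0416). The serine carboxypeptidase-like genes g47804, g52524 and g4163, whose products trim proteins or transfer acyl groups, rose by 1.68, 1.41 and 1.39 (adjusted p from 0.0594 to 0.134 over 8), and the lignan enzyme g34786 (secoisolariciresinol dehydrogenase-like) by 2.46 (0.29 over 8). Of the genes named so far for a rise, g38113, g37088, g37148, g35156, g34405 and g34786 lie on linkage group 9 and g55279, g51797, g54671 and g52524 on linkage group 13, where the medians of all genes were above 0.

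Both RING finger protein 44-like genes on linkage group 8 fell. RING proteins are mostly ubiquitin ligases. g30759 had 25.1 and 77 FPKM in WT and 3.75, 4.36 and 2.97, then 23.8, 5.15 and 5.69, in MBP3-OE. It fell by 3.39 without MBP3-OE 1 month number 2 (SE 0.25, adjusted p = 0.00776) and had a log2 fold change of -2.79 with it (SE 0.53, adjusted p = 0.0729). g30696 fell by 2.12 (adjusted p = 0.0269, and 0.0638 over 8). Both were called lower at 4 months too, with log2 fold changes of -3.36 and -2.59 (adjusted p = 0.0269 and 0.0288). For g30759 WT then stood at 32.1 FPKM and MBP3-OE at 3.37, 3.82 and 1.78, without overlap.

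Heat shock cognate 70 genes, chaperones of newly made proteins, also fell, and these near-identical genes may share reads. g3321 had 5.55 and 6.69 FPKM in WT, and 0.923, 1.05 and 1.04, then 4.62, 1.01 and 1.15, in MBP3-OE, a fall of 2.63 (SE 0.18, adjusted p = 0.00718, and 0.128 over 8). g48462 and g48148 fell by 2.30 and 2.44, and g20607 (heat shock protein 83, an HSP90) fell by 2.17, from 17.9 and 13.4 FPKM to 2.75, 4.33 and 3.40, then 17.2, 4.46 and 3.53. In each of these 4 genes MBP3-OE 1 month number 2 was the highest young MBP3-OE library (adjusted p over 8 from 0.114 to 0.225), and in g20607 it lay above WT of its age. The WT library of 4 months was above all 3 MBP3-OE libraries in each, with log2 fold changes between -2.99 and -2.14 that did not pass the test there (adjusted p from 0.0829 to 0.274). Of 223 genes for heat shock proteins and chaperones tested, 6 fell and 1 rose, against 0.573% and 0.299% of all genes. Over 8 libraries 10 had every MBP3-OE library below WT with at least 2-fold and 7 above, near the shares of all genes (2.78% and 3.86%), and over 7 libraries 22 and 7 (3.05% and 4.36% of all genes). Their median log2 fold change was -0.13 over 7 libraries and -0.06 over 8, against 0.01 over all genes. The other 2 that fell were g31062 (HSP90-6, mitochondrial) and g51792 (HSP70-like), and the 1 that rose was the BAG-type regulator g309.

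Some transcription factors of ethylene response and defence also fell. g28064 and g28078, ERF110-like transcription factors of the ethylene-response family that lie close together and may share reads, fell by 2.97 (SE 0.17) and 2.34 (SE 0.12), each with an adjusted p of 0.00645 and of 0.0594 over 8. In g28064 WT had 194 and 44.5 FPKM, and MBP3-OE had 36, 28.7 and 29.0, then 1.38, 5.83 and 4.25, every MBP3-OE library lying below both WT libraries. Of 154 AP2/ERF genes tested 5 fell and none rose, where 0.573% and 0.299% of all genes did, the other 3 being g38192 (ERF025-like), g12377 (RAV1-like) and g10099 (TOE3-like). Over 8 libraries 14 of the 154 had every MBP3-OE library below WT with at least 2-fold (2.78% of all genes) and 8 above (3.86%). Of 68 WRKY genes, transcription factors of defence, 4 fell (g19636, g30102, g37414 and g45950) and 1 rose, g24598 (WRKY70), where 0.573% and 0.299% of all genes did. Over 8 libraries 12 had every MBP3-OE library below WT with at least 2-fold (2.78% of all genes) and 4 above (3.86%). g45950 (WRKY28) went from 106 and 18.5 FPKM in WT to 22.9, 21.7 and 29.4, then 6.67, 6.38 and 8.25, in MBP3-OE, a fall of 1.86 (adjusted p = 0.0325, and 0.0594 over 8). g24598 rose by 2.46 (adjusted p = 0.0412, and 0.0848 over 8), from 1.08 and 0.149 FPKM to 7.6, 3.71 and 5.86, then 0.399, 1.20 and 1.10.

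Sesquiterpene genes fell as a block of neighbours. Of 79 genes of terpene synthesis tested, 8 fell and none rose (0.573% and 0.299% of all genes), and 7 of the 8 lie close together on linkage group 6, where near-identical copies of vetispiradiene synthase and of premnaspirodiene oxygenase, enzymes of sesquiterpene phytoalexins in the potato and tobacco family, may share reads and are not independent. g21068 (premnaspirodiene oxygenase-like) had 357 and 102 FPKM in WT, 156, 149 and 180 in MBP3-OE at 20 days and 6.64, 26.0 and 18.9 at 1 month. It fell by 1.76 (adjusted p = 0.038, and 0.0873 over 8). g21061 (vetispiradiene synthase 3-like) fell by 1.95 (adjusted p = 0.0404, and 0.141 over 8), with 157 and 92.6 FPKM in WT and 71.2, 73.0 and 75.7, then 1.84, 15.9 and 15.3, in MBP3-OE. The eighth is g489 on linkage group 1, an HMG-CoA reductase, the enzyme that commits carbon to the mevalonate pathway, with 108 and 53.9 FPKM in WT and 38.0, 44.4 and 56.2, then 18.4, 16 and 21.7, in MBP3-OE (log2 fold change -1.45, adjusted p = 0.038, and 0.0594 over 8). Over 8 libraries 17 of the 79 had every MBP3-OE library below WT with at least 2-fold (2.78% of all genes) and 4 above (3.86%). DESeq2 over 8 libraries called 12 lower and 2 higher (2.11% and 2.44% of all genes). The median of the whole list was -0.07 over 7 libraries and -0.10 over 8, so the falls did not extend to most of it.

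A few genes of other lists fell, where 0.573% of all genes did. Cationic class III peroxidases, secreted enzymes that cross-link walls, accounted for 3 falls among 85 such genes tested (g34282, g58802 and g58822, by 1.51, 1.55 and 1.70, with adjusted p over 8 from 0.17 to 0.21), with none rising. Over 7 libraries 42 of the 85 had a positive and 43 a negative log2 fold change. Over 8 libraries, however, 15 had every MBP3-OE library below WT with at least 2-fold (2.78% of all genes) and 1 above (3.86%). Over 7 libraries these counts were 16 and 3 (3.05% and 4.36% of all genes). DESeq2 over 8 libraries called 7 lower and 1 higher (2.11% and 2.44% of all genes). g16883, a YSL7-like transporter of metal-nicotianamine complexes and the only fall among 80 metal and sulfur genes, fell by 2.5 (SE 0.21, adjusted p = 0.0126, and 0.0594 over 8), from 117 and 17.2 FPKM to 25.6, 15.5 and 22.5, then 1.10, 2.79 and 3.97. g36161 (beta-D-xylosidase 1, an enzyme that trims xylan) fell by 2.40 (adjusted p = 0.00718, and 0.0604 over 8), from 18.3 and 16.3 FPKM in WT to 3.46, 2.77 and 3.35, then 7.71, 4.19 and 3.61. At 4 months WT was itself low, with 2.12 FPKM against 2.93, 3.27 and 2.35 in MBP3-OE. The expansin-like gene g55709, of a family that loosens walls, fell by 2.62 (adjusted p = 0.038, and 0.105 over 8), the only call among 29 expansin genes tested.

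Of 96 genes of nitrogen uptake and assimilation, the only call, where 0.573% of all genes fell, was g38253 (NRT1/PTR family 6.3-like, a relative of the Arabidopsis nitrate transporter and sensor), which fell by 2.97 (adjusted p = 0.037, and 0.107 over 8). WT had 8.34 and 1.79 FPKM, and MBP3-OE had 0.545, 0.682 and 1.00, then 0.00592, 0.553 and 0.310. In 14 of the 96 every MBP3-OE library lay below WT with at least 2-fold (2.78% of all genes) and in 1 above (3.86%), and over 7 libraries in 13 and 2. The median log2 fold change was -0.36 over 8 libraries and -0.38 over 7. The myb-related repressor g13125 (Myb4-like) fell by 1.95, the F-box gene g63604 by 2.33, the 21 kDa protein-like gene g12646 (of a family of pectinesterase inhibitors) by 2.29 and the calmodulin-binding IQM5-like gene g2300 by 2.24 (adjusted p over 8 from 0.0594 to 0.0638). Among 38 sporamin and Kunitz inhibitor genes 2 fell, the trypsin inhibitor genes g33092 and g32815 on linkage group 8, by 2.84 and 2.33 (0.0956 and 0.0616 over 8), where 0.573% of all genes fell. In the same list 12 of 38 had every MBP3-OE library above WT with at least 2-fold (3.86% of all genes) and 8 below (2.78%). The 12 carry close gene numbers, from g46650 to g46878, and log2 fold changes between 3.04 and 3.56 over 8 libraries. They may be copies that share reads and are not independent. DESeq2 over 8 libraries called 11 higher and 7 lower (2.44% and 2.11% of all genes). The median was 0.29 over 8 libraries and 0.15 over 7.

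**Figure D4:**
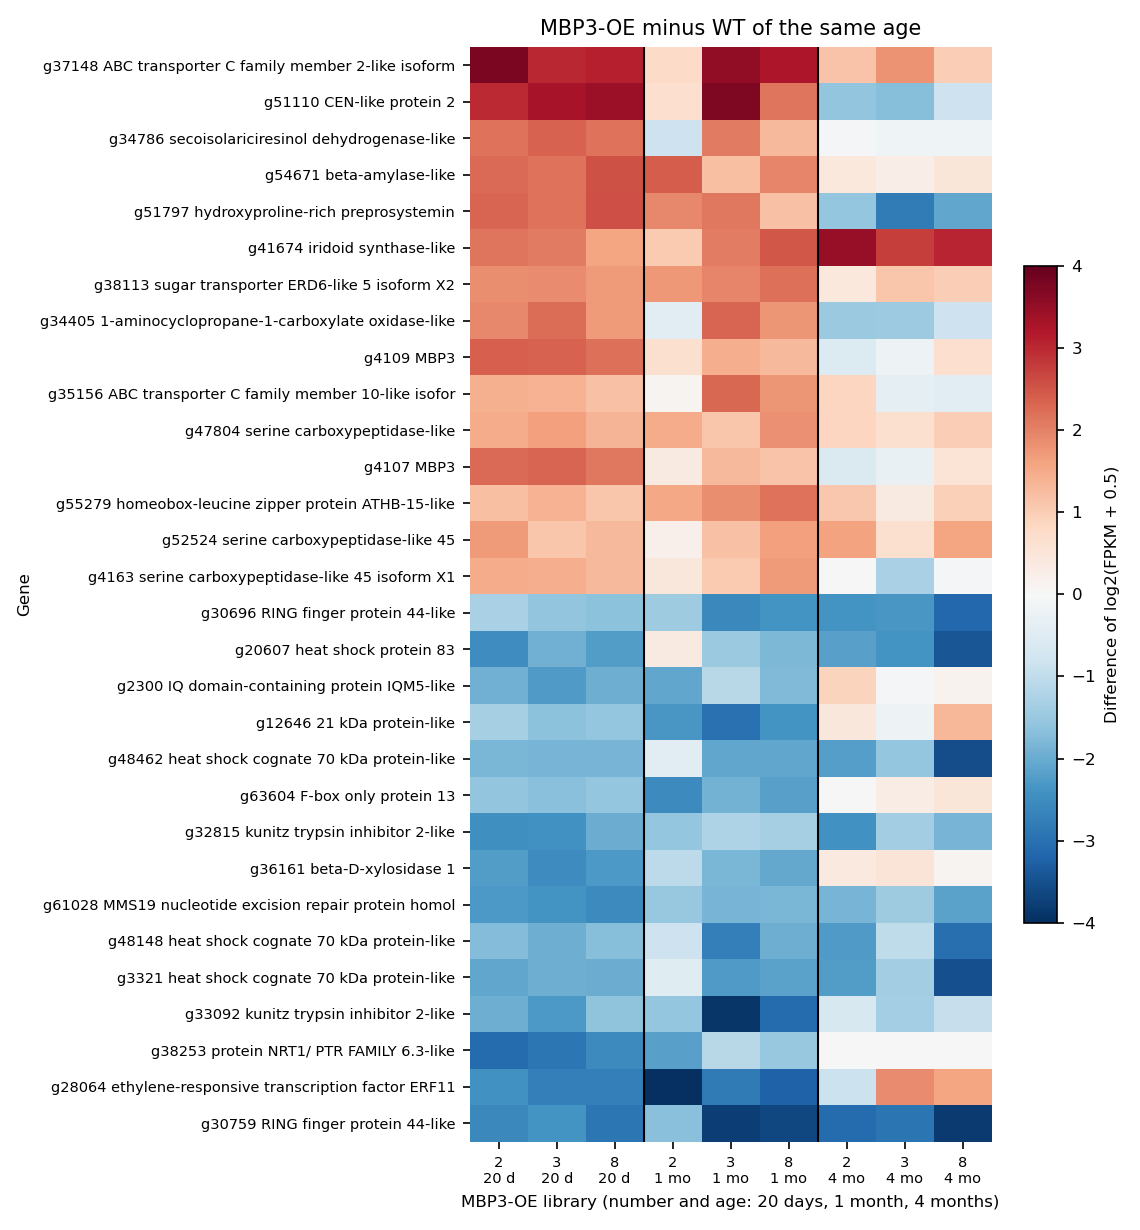
Difference of log2(FPKM + 0.5) between each MBP3-OE library and WT of its age (colour, red above WT, blue below) for the 30 genes named by rule over 7 libraries (rows, 15 with the largest rise and 15 with the largest fall), with libraries in columns by number and age. At 1 month number 2 is paler than numbers 3 and 8 in many rows, and at 4 months rows such as g30759, g61028 and g41674 keep their colour while g51110 and g28064 do not.

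No sporamin gene was called by edgeR over 8 or 7 libraries, but the sporamin share of all counts was higher in each MBP3-OE library than in WT of its age. The 42 sporamin genes took 0.026% of counts in WT at 20 days and 0.14%, 0.16% and 0.0666% in MBP3-OE, and 0.289% in WT at 1 month and 1.3%, 1.70% and 0.418% in MBP3-OE. The mean difference on the log2 scale was 1.94, a 3.85-fold ratio. An exact two-sided permutation test within ages gave p = 0.0625, the smallest that its 16 arrangements allow. Without MBP3-OE 1 month number 2 the difference was 1.84, and the same exact test gave p = 0.0833, the smallest that 12 arrangements allow. The 95% Wilson intervals of these shares were no wider than 0.00337 percentage points either side and cover counting error only. In the abundant gene g46653 WT had 1.28 and 251 FPKM, and MBP3-OE had 103, 108 and 43.3, then 1481, 1817 and 456, at a log2 fold change of 3.50 over 8 libraries (edgeR adjusted p = 0.145, DESeq2 adjusted p = 0.000113).

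Other lists had no call by edgeR over 7 or 8 libraries but lay to 1 side. In 28 of 219 cell cycle and histone genes every MBP3-OE library was above WT with at least 2-fold and in none below (DESeq2 over 8 libraries called 17 higher and 52 had an unadjusted edgeR p under 0.05), with a median log2 fold change of 0.31. Over 7 libraries 31 lay above and none below, with a median of 0.34. Starch synthesis had 4 of 23 above and none below (DESeq2 3, unadjusted 12), with a median of 0.58, and over 7 libraries 4 above, with a median of 0.69. Storage parenchyma markers, sporamin among them, had 14 of 27 above (DESeq2 12, unadjusted 18), with a median of 1.18, and over 7 libraries 14 above, with a median of 1.22. The medians of these 3 lists thus lay above that of all genes with and without the library. The sporamin genes of the storage parenchyma markers also enter the sporamin and Kunitz list and the sporamin share of counts. They may share reads, so these are not independent results. Photosystem and light-harvesting genes had 18 of 40 above and none below (DESeq2 14, unadjusted 20), with a median of 1.67, and over 7 libraries 19 above, with a median of 1.49. Cytosolic ribosomal protein genes had none above and 2 below of 249 (DESeq2 2 lower, unadjusted 123), with a median of -0.38, and over 7 libraries 1 above and 2 below, with a median of -0.32 and 235 of the 249 negative. Over all 28096 genes tested the same shares were 3.86% above and 2.78% below over 8 libraries and 4.36% and 3.05% over 7, and the median was 0.01. DESeq2 over 8 libraries called 2.44% of all genes higher and 2.11% lower, and 18.6% had an unadjusted edgeR p under 0.05.

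Of the marker lists, by summed FPKM, storage parenchyma lay above WT in every MBP3-OE library at both ages, as did the low sums of 5 endodermis markers. Green shoot tissue did so at 1 month only. Phloem and root hair lay above WT at 20 days and below it at 1 month. Xylem and root apex straddled WT at both ages, xylem at 1 month only through number 2. The summed FPKM of the 42 markers of green shoot tissue was 131 in WT and 129 to 303 in MBP3-OE at 20 days, and 391 in WT and 452 to 1712 in MBP3-OE at 1 month, the highest being number 2, without which they reached 1472. None of the 42 was at 0 in all 8 libraries. Their share of counts was above WT in each MBP3-OE library at 20 days too, though only slightly in number 2 (0.0176% against 0.0168%). This share differed by 1.14 on the log2 scale (exact permutation test, two-sided p = 0.125), and by 0.96 without number 2 at 1 month (exact permutation test, p = 0.25). The 55 storage parenchyma markers summed to 255 in WT and 574 to 1309 in MBP3-OE at 20 days, and to 2399 in WT and 3631 to 14246 in MBP3-OE at 1 month (10216 in number 2), with 5 at 0 in all 8 libraries and 6 at 0 in both WT libraries only. The 36 xylem markers summed to 213 in WT and 187 to 285 in MBP3-OE at 20 days, and to 164 and 115 to 190 at 1 month (180 and 190 without number 2), and the 116 phloem markers to 541 and 567 to 581, then 650 and 379 to 528 (418 and 528 without number 2). Markers of root were present, with none of 9 root hair markers at 0 in all 8 libraries, and the 60 root apex markers summed to 651 in WT and 594 to 682 in MBP3-OE at 20 days and to 477 and 374 to 491 at 1 month (439 and 491 without number 2). The part of these levels in the calls above was not tested.

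**Figure D5:**
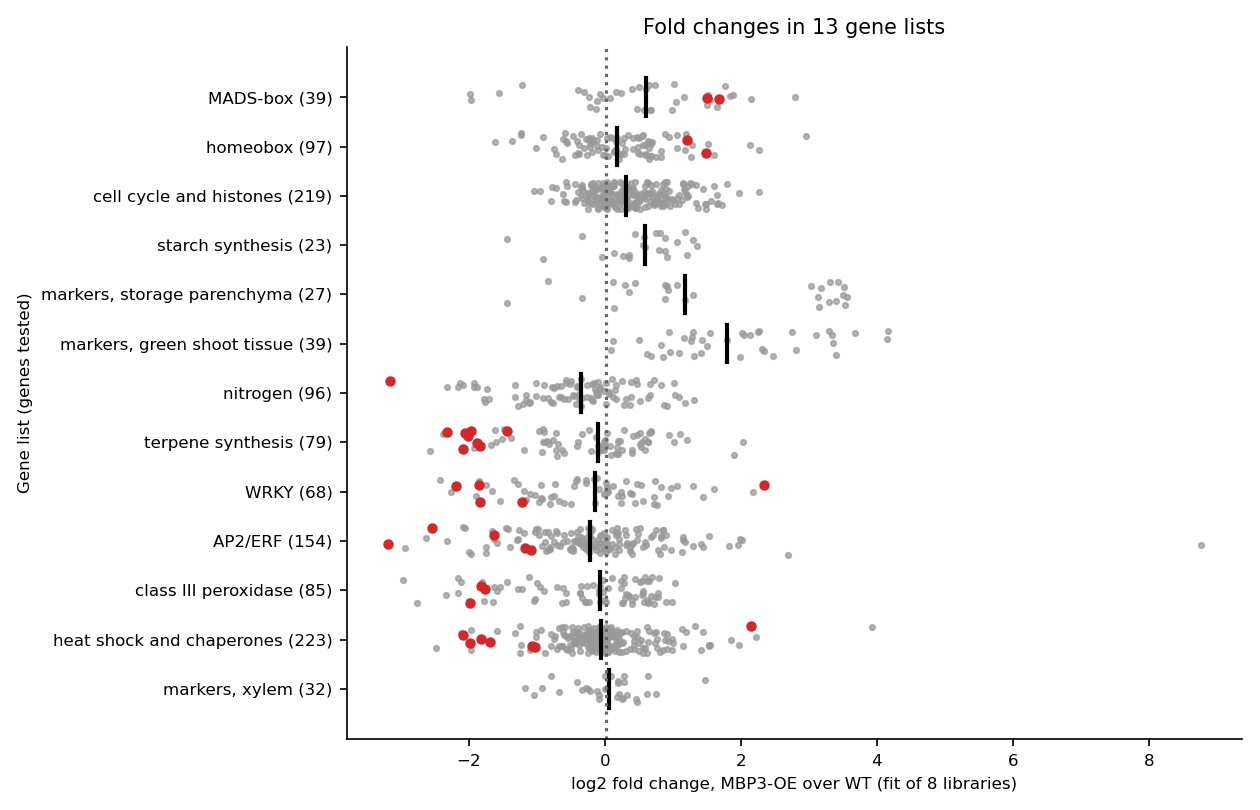
log2 fold change of MBP3-OE over WT in the fit of 8 libraries (x axis) for every tested gene of 13 lists (rows, with the number tested). Each dot is a gene, red where it was called over 7 libraries, the black bar is the median of the list and the dotted line the median of all genes, 0.01. MADS-box genes (0.60) and both storage and green tissue markers (1.18 and 1.79) have medians to the right, and nitrogen genes (-0.36) to the left.

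The genes that fell were largely lower in the older WT library as well. They come from the calls over 7 libraries, since the 3 calls over 8 are too few for such shares. Of the 161, 134 (83.2%) were lower in WT at 1 month than in WT at 20 days, against 39.1% of all genes tested, and 135 were lower in MBP3-OE at 1 month (2 libraries) than at 20 days. Of the 84 that rose, 56 (66.7%) were higher in the older WT library, against 60.8% of all genes. The age difference and the genotype difference use the same WT libraries, so these shares are a description only.

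The calls were not spread evenly over the genome. Linkage groups 7 and 8 held 56 of the 161 genes that fell (34.8%) and 13.5% of all genes tested. Linkage group 7 had 35 falls and no rise. Linkage groups 9 and 13 held 27 of the 84 that rose (32.1%) and 12.8% of those tested. The other 11 linkage groups kept 54 rises (0.261% of their genes) and 96 falls (0.464%). Linkage groups 7, 8, 9 and 13 were picked for their medians in these same libraries, so such shares were likely from the start and are a description only. Of the genes on linkage group 7, 70.8% had a negative log2 fold change over 7 libraries, as had 69.6% on linkage group 8, while 67.6% on linkage group 9 and 69.2% on linkage group 13 had a positive one. The median fitted log2 fold changes of the 4 groups were -0.22, -0.19, 0.20 and 0.20 over 8 libraries and -0.27, -0.23, 0.21 and 0.23 over 7. Without WT 20 days, with the other 7 libraries kept, linkage groups 7 and 8 had only -0.10 and -0.08.

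Whether the difference between MBP3-OE and WT changed with age was asked next. At 20 days 0 genes were called in the fit of 8 libraries by edgeR, with 4278 at an unadjusted p under 0.05 and 1305 called by DESeq2, and at 1 month 1 gene was called, g46748, with 4290 at an unadjusted p under 0.05. Without MBP3-OE 1 month number 3 the count at 1 month was 10, and without MBP3-OE 20 days number 2, 3 or 8 or 1 month number 8 it was 0. Without MBP3-OE 1 month number 2, 152 genes were higher (0.541%) and 265 lower (0.943%) at 20 days, and 33 were higher (0.117%) and 95 lower (0.338%) at 1 month. Fewer calls at 1 month do not show a smaller effect there, and the difference between ages itself passed for 1 gene, g46748, both over 8 and over 7 libraries. An unadjusted p under 0.05 was met by 2791 genes (9.93%) over 8 libraries. By DESeq2 398 genes passed with a difference (log2 fold change at 1 month minus that at 20 days) above 0 and 317 with one below 0. The sign of this difference does not say at which age the effect was larger. g46748, described only as an unnamed protein product on linkage group 11, had 10.03 FPKM in WT at 20 days and 10.8, 9.92 and 9.57 in MBP3-OE, but was listed at 0 in WT at 1 month against 4.95, 7.69 and 6.63. Leaving out MBP3-OE 20 days number 2, 3 or 8, or MBP3-OE 1 month number 3 or 8, left 0 genes by edgeR, with 1952 to 3531 at an unadjusted p under 0.05.

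The same genes were read in the 4 libraries of 4 months, which share no sample with the comparison and were fitted together with its 7 libraries, so that they share an estimate of the spread. Of the 84 that rose, 60 had a log2 fold change above 0 at 4 months, where 52.4% of all genes had one, and 39 (46.4%) had all 3 MBP3-OE libraries above WT, against 21.2% of all genes. By edgeR 7 of the 84 were called higher at 4 months and 1 lower, where 0.16% and 0.313% of all genes were called. Those called higher include g22066 and g41674, and the 1 called lower is g13906, a SWI/SNF-related gene of chromatin remodelling (log2 fold change 1.37 in young roots and -3.06 at 4 months, adjusted p = 0.0288). Of the 161 that fell, 76 (47.2%) had a log2 fold change below 0 at 4 months, close to the 46.8% of all genes, and 53 (32.9%) had all 3 MBP3-OE libraries below WT, against 28.9%. By edgeR 5 of the 161 were called lower again, namely g61028, g30759, g30696, g31062 and g25617 (a protein kinase APK1B gene), and 1 was called higher, the receptor-like kinase g45982 (-1.32 in young roots and 2.54 at 4 months, adjusted p = 0.0416).

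A search for genes present in one genotype only gave 1 gene over the 8 young libraries. g35999, annotated as the kinase GCN2, which slows translation when amino acids are scarce, had 1.37 and 1.22 FPKM in WT and was listed at 0 in all 6 MBP3-OE libraries. At 4 months the order was the reverse, with 0 in WT and 2.30, 2.33 and 0 in MBP3-OE. No gene was at 0 in both WT libraries with at least 1 FPKM in all 6 MBP3-OE libraries. Without MBP3-OE 1 month number 2 there were 2 such genes, g7124 and g23719, neither with a known role: g7124 was at 0 in WT at all 3 ages, between 2.04 and 4.51 FPKM in the 8 other MBP3-OE libraries and at 0 in that library. In the other direction g33630 (an RPP13-like disease resistance gene) was at 0 in the other 5 young MBP3-OE libraries, had 1.23 FPKM in that library and 2.43 and 1.55 in WT.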

How the data were processed

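RNA of whole roots was sequenced (Illumina TruSeq, a kit that does not mark strand). The submitters' processing notes name cutadapt 1.9, HISAT2 2.0.4 and StringTie 1.3.4d, tools for trimming, alignment and transcript assembly. The deposited table, as the authors made it, gives counts and FPKM per gene. Reads were aligned to the sweetpotato genome of the Ipomoea Genome Hub. Its version, and how the counts were made, were not given in the sources used here. The counts went into edgeR 4.0.16 (TMM scaling, quasi-likelihood test, genotype and age as terms) and the deposited FPKM were used for levels and the filter (mean of at least 0.5). A gene was called at an adjusted p under 0.05 and at least 2-fold. Alternatives used DESeq2 1.42.0 and limma 3.58.1 in R 4.3.3. The scripts were tested on simulated data.

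The members and the gene lists were chosen with earlier results of these data known. The 49 lists were matched by words of the descriptions in the table, and expansins by gene ID. Named genes are MBP3, the 15 called genes with the largest rise and the 15 with the largest fall among those with a description, at least 5 FPKM and no overlap between genotypes, and per list up to 4 called genes and the 2 most abundant. After the data were seen, this rule was applied to 7 libraries as well. Genes named outside it (g22066, g10099, g37414, g31062, g489, g46748, g13906, g25617, g35999 and the 15 separating genes) were chosen after their values were seen.

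Same-numbered MBP3-OE libraries of both ages did not deviate together (correlations -0.04, -0.05 and 0.07), so the numbers were not used as pairs.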

Additional observations from a re-analysis of the deposited data

Results flagged for a closer look

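The effect of genotype differed between ages for g46748, an unnamed protein product: the log2 effect at 1 month minus that at 20 days was 11.55 over 8 libraries and 11.68 without MBP3-OE 1 month number 2. WT at 1 month is listed at 0, so both values depend on the prior count of the fit and are no bound. The 4-month WT library was also listed at 0, with 0.414, 5.41 and 0.816 FPKM in MBP3-OE.

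Linkage group medians were read in the 4-month libraries, which the comparison did not use. The median log2 fold change there was -0.2486 on linkage group 7, -0.2283 on linkage group 8, 0.2536 on linkage group 9 and 0.2135 on linkage group 13.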

How the results depend on the processing

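The main count of 3 calls was 1 with median-ratio size factors, 0 with a mean of at least 2 FPKM (4348 genes at an unadjusted p under 0.05), 1278 by DESeq2, 5 by limma on log2(FPKM + 0.1), 40 by limma voom with library weights, 83 by voom without weights, 99 with 4 cell means, 0 without age (2254 unadjusted) and 1873 at an unadjusted p under 0.05 with 2-fold. Leaving out 1 library gave 0 to 245. Over 7 libraries the 245 calls became 1486 by DESeq2, 711 with cell means and 0 to 461 with a second library left out. With the replicate block as fixed terms both counts were 0 (4271 and 4110 genes unadjusted), and with the replicate block as a random effect the first was 481; since the numbers do not pair the libraries, no call is weighed on this.

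At 20 days the count of 0 was 1305 by DESeq2, 164 and 1 by limma (pseudocounts 1 and 0.1), 1836 in libraries of that age alone and 0 to 417 with 1 library left out. At 1 month the count of 1 was 1421 by DESeq2, 0 and 2 by limma, 0 with all 12 libraries, 0 in libraries of that age alone (2328 unadjusted) and 0 to 128 with 1 left out. For the difference between ages it was 715 by DESeq2, 0 with all 12 libraries and 0 to 1 with 1 left out.

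The linkage group medians kept their sign in each setting. With 1 library left out they ranged from -0.267 to -0.099 on group 7, from -0.228 to -0.084 on group 8, from 0.175 to 0.257 on group 9 and from 0.187 to 0.259 on group 13, and limma with pseudocount 1 gave -0.103 on group 8. For 47 named genes, the 1033 settings were rated 852 the same, 151 stronger and 30 weaker, and none reversed a direction. Many of these genes were chosen for their separation in the same libraries, so a reversal was unlikely from the start. With 1 WT library per age, the spread of WT was not measured.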
